A study of Macaca mulatta with 17 samples.

Results

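Genes of elastic fibres and microfibrils were examined in the uteri of 17 female rhesus macaque (Macaca mulatta) fetuses. The set was a list of 10 symbols (ELN, FBN1, FBN2, FBN3, MFAP2, MFAP4, FBLN1, FBLN2, FBLN5 and LOX), and a gene was included where the array's description named it. In all, 9 of the 10 genes had such a probe, among 16469 distinct gene names on the array. ELN, which encodes elastin itself, was not analysed here. FBN2 was found through its gene ID, because the array describes its probe only as similar to the fibrillin 2 precursor. FBLN1 alone had more than 1 probe, and of its 2 probes the one analysed was chosen by its higher mean signal over the 17 arrays.

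Each fetus gave 1 single-color array. Dams of the BPA groups ate fruit that carried deuterated bisphenol A (BPA) at 400 µg per kg per day, and the dams of control fetuses received the ethanol vehicle. GD100 fetuses, taken by cesarean section at gestational day 100, comprised 5 controls and 5 fetuses exposed from day 50. By the paper's account, stillborn GD165 fetuses of both treatments were left out of the array measurements. The GD165 fetuses measured, delivered vaginally near term, comprised 4 controls and 3 fetuses exposed from day 100. Gestational age, route of delivery and, among the exposed fetuses, the window of exposure therefore changed together and cannot be told apart. The RNA came from uterine tissue spanning fundus to cervix, so that endometrium, myometrium and cervix contributed to 1 measurement, in which fewer cells of a type and less RNA per cell cannot be told apart. Mullerian and uterine stromal markers HOXA10, HOXA11, EMX2, ESR1 and PAX8 were well above background on 17 of 17 arrays, HAND2 on 9 and PGR on 3.

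Microfibrils are extracellular filaments built from fibrillins. They carry latent TGF-beta complexes and act as the scaffold on which tropoelastin is laid down, with fibulins guiding the deposition and lysyl oxidases cross-linking the product. In the uterus, elastic fibres lie in the myometrium, the vessel walls and the cervix, tissues that stretch during pregnancy and recoil afterwards. FBN1 is the fibrillin of most adult tissues, and FBN2 and FBN3 are known mainly from fetal tissues.

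The measurements rest on what each 60-base probe hybridized with. The probes of the 3 fibrillins are shown because the fibrillins differed in the size of their age difference, and those of the 2 FBLN1 transcripts because they gave different readings. They are written as the scanner files give them, in lower case, with the polyadenylation signal AATAAA in capitals.
FBN1 probe A_01_P017241: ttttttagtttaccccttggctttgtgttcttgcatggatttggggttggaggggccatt
FBN2 probe A_01_P004399: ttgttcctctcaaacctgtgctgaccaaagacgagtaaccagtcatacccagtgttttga
FBN3 probe A_01_P004611: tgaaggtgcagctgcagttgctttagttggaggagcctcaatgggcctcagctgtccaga
FBLN1 variant C probe A_01_P001047: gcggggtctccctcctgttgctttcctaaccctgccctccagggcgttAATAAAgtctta
FBLN1 variant B probe A_01_P017123: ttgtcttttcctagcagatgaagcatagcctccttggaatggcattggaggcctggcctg
Over all 45 pairs of the 10 probe sequences of these genes, the longest run shared by any pair, on either strand, was 9 bases. AATAAA occurred in 1 of the 10 probes searched on both strands, and in 16.8% of the 20217 probes of the array.

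All 9 genes were well above background on all 17 arrays, and no array was saturated for any of them. Levels below are the log2 signal of a probe after each array was scaled to its 75th percentile, and a difference of 1 is a doubling. Brightness depends on the probe as well as the transcript, so no gene's level is set against another's.

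The largest difference between gestational ages was that of FBN3. In GD100 controls FBN3 stood at 11.75, 12.15, 12.33, 12.02 and 11.63, and in GD165 controls at 9.60, 10.66, 10.02 and 8.43. Every GD165 control lay below every GD100 control, with the GD165 values spread more widely (SD 0.94, n = 4, against 0.29, n = 5). FBN3 fell by 2.30 on the log2 scale (SE 0.37), which made it 4.92-fold lower (95% confidence interval 2.83 to 8.55, adjusted p = 0.000555). Among BPA-exposed fetuses FBN3 stood at 12.31, 11.62, 12.36, 11.90 and 11.55 at GD100 and at 9.53, 10.48 and 9.04 at GD165, again without overlap. The difference was -2.26 (SE 0.41, adjusted p = 0.00155), and it missed the threshold without GD165 BPA replicate 5, at -1.94 (adjusted p = 0.0116).

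FBN2 also fell with age in controls. Its levels were tight at GD100, at 14.98, 15.10, 15.08, 15.10 and 15.00, and at GD165 they were 14.37, 14.38, 14.31 and 13.30. GD165 control replicate 6 lay about 1 log2 unit under its group, and all 4 GD165 controls lay under the GD100 range. FBN2 fell by 0.96 (SE 0.19), or 1.94-fold (95% confidence interval 1.46 to 2.59, adjusted p = 0.00265), and by 0.70 (adjusted p = 0.0022) without that animal. With slide as a fixed block the difference was -0.96 and its call was lost (adjusted p = 0.0296), as it was when only the control groups were fitted (adjusted p = 0.018). Within the 2 slides that carried controls of both ages, FBN2 differed by -0.69 and -0.63 at GD165, with 1 fetus of each age on a slide. In BPA-exposed fetuses FBN2 was 14.55, 14.79, 15.08, 15.08 and 14.67 at GD100 and 14.35, 13.99 and 13.92 at GD165, a difference of -0.75 (SE 0.21) that did not pass the threshold (adjusted p = 0.0211).

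FBN1 showed a smaller difference. Its levels were 14.66, 14.27, 14.56, 14.54 and 14.29 in GD100 controls and 14.23, 13.94, 13.93 and 14.01 in GD165 controls. The groups did not overlap, but replicate 1 at GD165 and replicate 2 at GD100 were close, and the difference of -0.44 (SE 0.13) did not pass (adjusted p = 0.0232). In BPA-exposed fetuses the FBN1 groups overlapped, at 14.30, 14.67, 14.52, 14.31 and 14.08 against 14.27, 14.17 and 13.89, with a difference of -0.27 (adjusted p = 0.187), or -0.16 without GD165 BPA replicate 5.

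**Figure D1:**
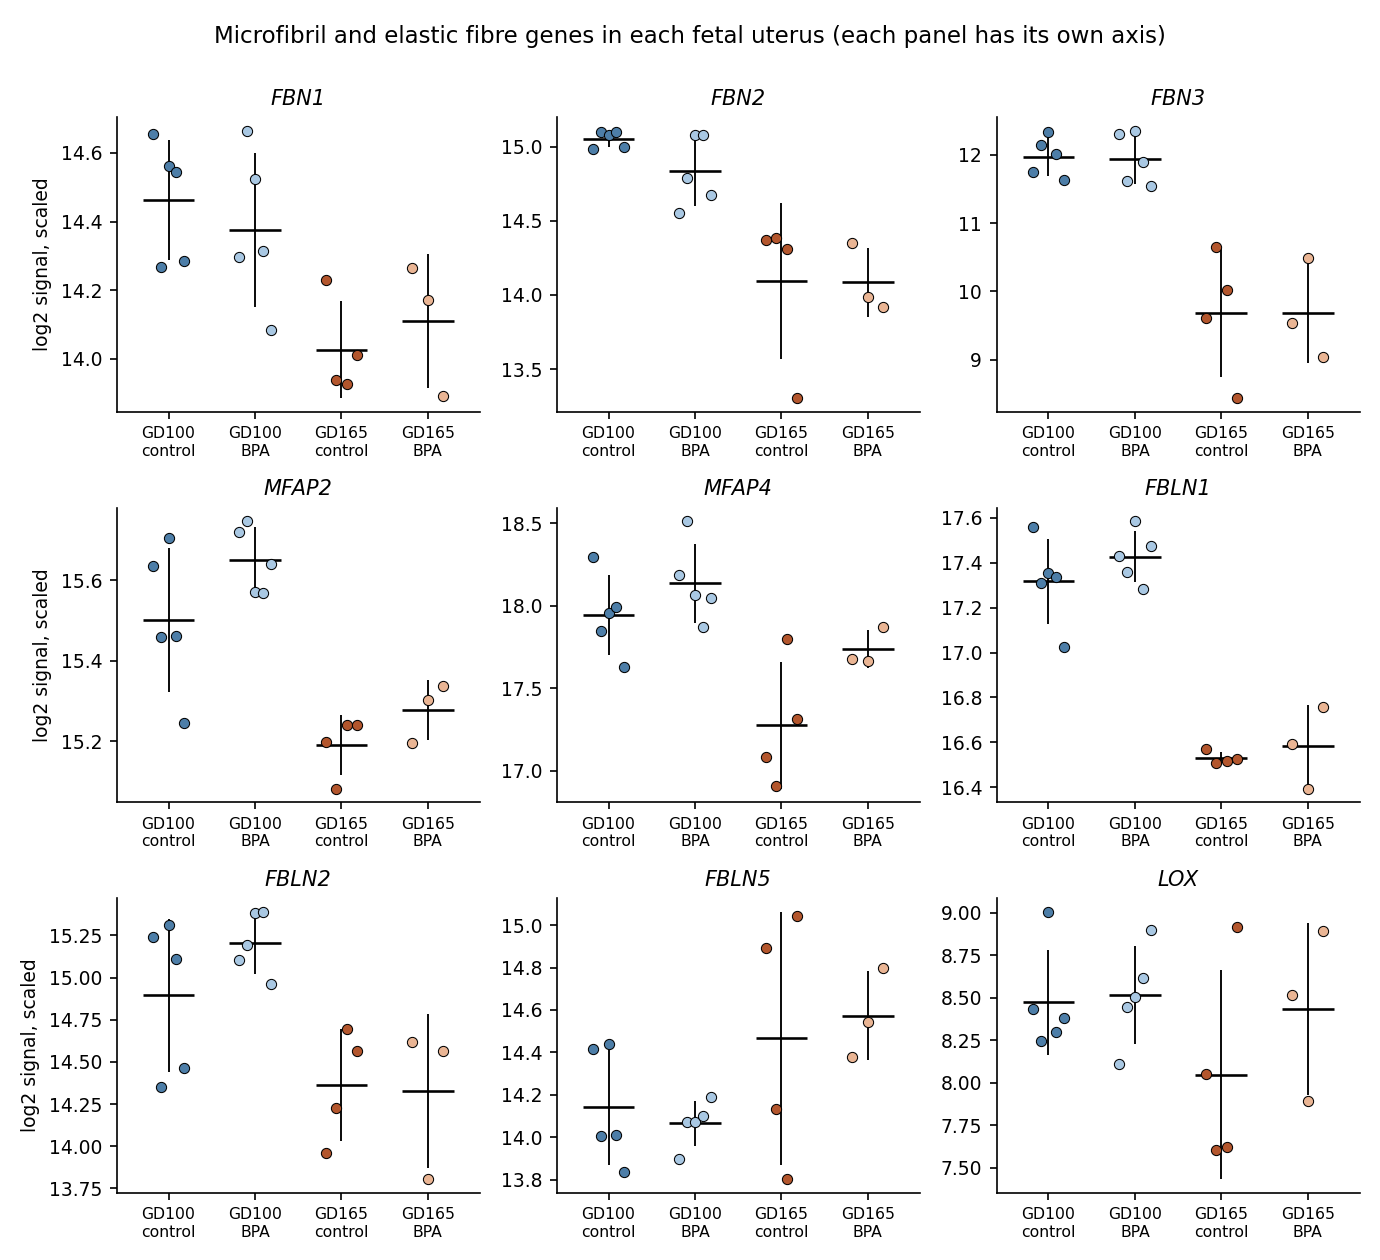
Scaled log2 signal of the 9 genes in each fetus (points), with the group mean (horizontal line) and SD (vertical line) for GD100 control, GD100 BPA, GD165 control and GD165 BPA, each panel on its own axis. FBN2, FBN3, FBLN1 and MFAP2 separate the ages in both treatments, FBN2 has 1 low GD165 control at 13.30, and FBLN5 is the gene whose mean is higher at GD165 in both treatments.

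Within each array, the signal of one fibrillin can be followed relative to another's, which removes any scaling of the whole array. FBN3 relative to FBN1 moved by -1.86 between control ages, which is 3.63-fold lower, and was 3.99-fold lower between BPA-exposed ages, with no overlap of the ages in either. FBN2 relative to FBN1 moved by -0.52 in controls, where the ages overlapped, and by -0.48 in BPA-exposed fetuses, where they did not. The log2 difference of FBN2 from FBN1 was -0.71 in GD165 control replicate 6 and 0.14, 0.45 and 0.38 in the other GD165 controls. In GD100 controls it ran from 0.33 to 0.83. FBN3 relative to FBN2 moved by -1.34 and -1.51. These pairs were chosen with the values known and are given without a test. In group means the age differences of the 3 fibrillins were unequal, with the smallest for FBN1 in each treatment.

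Among the fibulins, which are calcium-binding glycoproteins of elastic fibres and basement membranes, FBLN1 fell and the other genes did not pass. FBLN1 measured 17.56, 17.31, 17.36, 17.34 and 17.02 in GD100 controls and 16.57, 16.51, 16.52 and 16.52 in GD165 controls. The GD165 controls lay within a span narrower than that of any other of the 9 genes in any group (SD 0.03), and well clear of the GD100 range. FBLN1 fell by 0.79 (SE 0.10), or 1.72-fold (95% confidence interval 1.48 to 2.01, adjusted p = 9.96e-05). The BPA-exposed fetuses showed the same separation, at 17.43, 17.36, 17.59, 17.28 and 17.47 against 16.59, 16.39 and 16.76, a difference of -0.84 (SE 0.11, adjusted p = 0.000201).

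The FBLN1 result belongs to the transcript variant C probe. The variant B probe was near background, well above it on 4 of 17 arrays, with group means of 3.07, 3.02, 3.07 and 2.58 for GD100 control, GD100 BPA, GD165 control and GD165 BPA. Its difference between control ages was -0.00 (95% confidence interval -0.66 to 0.65). When both probes were averaged, the FBLN1 call was lost in controls, at -0.39 (adjusted p = 0.0865), and in BPA-exposed fetuses, at -0.64 (adjusted p = 0.0154).

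FBLN2 binds tropoelastin and basement membrane proteins. It measured 15.24, 14.35, 15.31, 15.11 and 14.46 in GD100 controls and 13.96, 14.23, 14.70 and 14.57 in GD165 controls, so that the 2 lowest GD100 controls sat among the GD165 animals. The difference was -0.53 (SE 0.23, adjusted p = 0.119). In BPA-exposed fetuses the ages did not overlap, at 15.10, 15.19, 15.38, 15.39 and 14.96 against 14.62, 13.80 and 14.56, and the difference of -0.88 (SE 0.25) had an adjusted p of 0.0228. With slide as a fixed block it was -0.37 (adjusted p = 0.363), and on the 1 slide that carried exposed fetuses of both ages FBLN2 differed by -0.40.

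FBLN5, which tethers tropoelastin to microfibrils and to cell-surface integrins, was the only one of the 9 genes with a higher mean at GD165 in both treatments. Its levels were 14.42, 14.01, 14.44, 14.01 and 13.84 in GD100 controls and 14.89, 14.13, 13.80 and 15.04 in GD165 controls, where it was highest in replicates 1 and 6 and lowest in replicate 5. That spread (SD 0.60) exceeded the difference of 0.33 (SE 0.22, adjusted p = 0.33), and the within-slide differences in controls ran from -0.31 to 1.06. The difference was 0.13 without replicate 6, 0.18 without replicate 1 and 0.55 without replicate 5, and 0.57 with slide as a fixed block, and it did not pass in any of these. In BPA-exposed fetuses the ages did not overlap, at 13.90, 14.07, 14.07, 14.10 and 14.19 against 14.38, 14.54 and 14.80, with a difference of 0.51 (SE 0.24, adjusted p = 0.142). Relative to FBLN1 on the same array, FBLN5 moved by 1.11 in controls and 1.35 in BPA-exposed fetuses, without overlap of the ages in either. FBLN1 itself fell, which is part of this movement. Relative to FBN1, FBLN5 moved by 0.76 in controls, where the ages overlapped, and by 0.77 in BPA-exposed fetuses, where they did not. Both pairs were chosen with the values known and are given without a test.

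**Figure D2:**
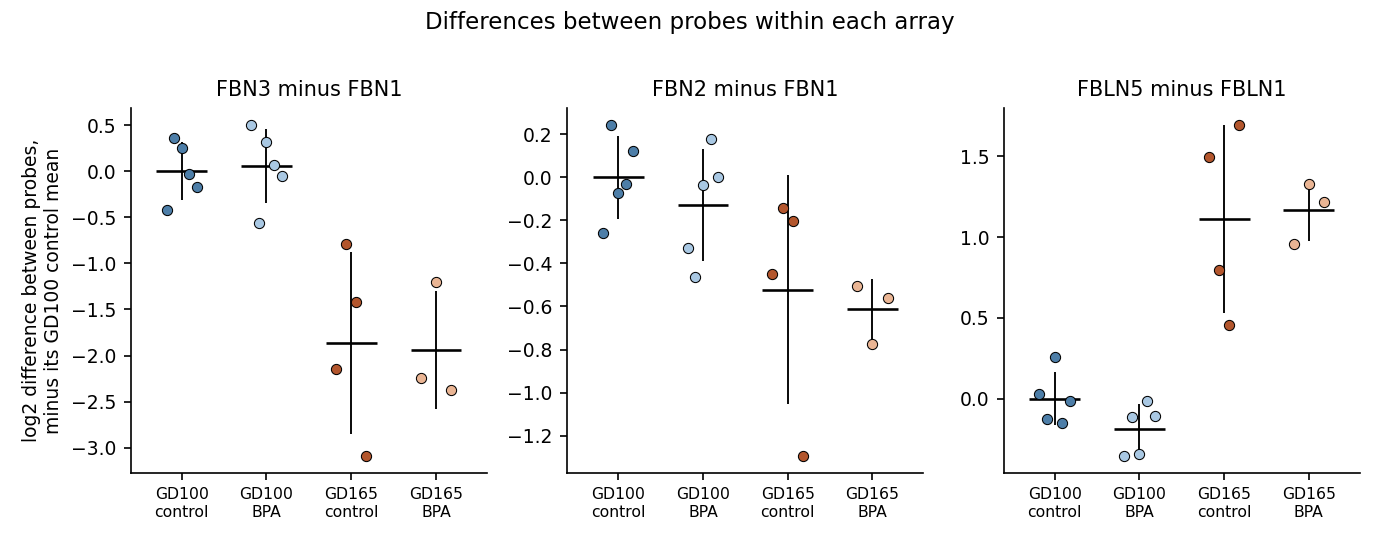
Log2 difference between pairs of probes on the same array, minus its mean in GD100 controls, for each fetus (points) in the 4 groups, with group mean and SD. FBN3 minus FBN1 is lower at GD165 (change of -1.86 in controls), whereas FBN2 minus FBN1 overlaps between the control ages. FBLN5 minus FBLN1 is higher at GD165 (1.11 in controls), in part because FBLN1 itself fell.

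MFAP2 (microfibril-associated glycoprotein 1) binds the fibrillin bead and was the gene with the smallest spread between animals, with a pooled within-group SD of 0.12 against a median of 0.25 over all probes. It measured 15.63, 15.46, 15.70, 15.46 and 15.25 in GD100 controls and 15.20, 15.08, 15.24 and 15.24 in GD165 controls. Replicate 5 at GD100 almost touched the GD165 range, and the difference of -0.31 (SE 0.09) did not pass (adjusted p = 0.0209). In BPA-exposed fetuses MFAP2 was 15.72, 15.75, 15.57, 15.57 and 15.64 at GD100 and 15.20, 15.30 and 15.34 at GD165, with a difference of -0.37 (SE 0.10, adjusted p = 0.0145).

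MFAP4, a fibrinogen-related protein that binds tropoelastin and fibrillin, measured 18.29, 17.85, 17.96, 17.99 and 17.63 in GD100 controls and 17.09, 16.91, 17.80 and 17.31 in GD165 controls. Only GD165 control replicate 5 reached into the GD100 range. The difference of -0.67 (SE 0.17) had an adjusted p of 0.0126. It was -0.84 and passed without that replicate (adjusted p = 0.00186), and was -0.55 without GD165 control replicate 3 (adjusted p = 0.0439). In BPA-exposed fetuses the values were 18.19, 18.51, 18.06, 17.87 and 18.05 at GD100 and 17.68, 17.66 and 17.87 at GD165, with a difference of -0.40 (SE 0.19, adjusted p = 0.15), or -0.18 with slide as a fixed block. GD165 BPA replicate 5, at 17.8708, almost touched GD100 BPA replicate 4, at 17.8716, so the exposed ages only just separated.

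LOX, the lysyl oxidase that starts the cross-linking of elastin and collagen, measured 8.43, 8.24, 9.01, 8.30 and 8.38 in GD100 controls and 8.05, 7.60, 7.62 and 8.92 in GD165 controls. GD165 control replicate 6 stood with the highest GD100 values and the other 3 lay below all of them. The difference was -0.43 (SE 0.27, adjusted p = 0.302) in controls and -0.08 (SE 0.29, adjusted p = 0.873) in BPA-exposed fetuses, whose LOX levels were 8.11, 8.45, 8.50, 8.61 and 8.90 at GD100 and 8.51, 7.89 and 8.89 at GD165. In controls it was -0.72 without GD165 control replicate 6 (adjusted p = 0.0532), and -0.28 without GD165 control replicate 3 or 5. In BPA-exposed fetuses its sign was not stable, at 0.19 without GD165 BPA replicate 4 and -0.31 without GD165 BPA replicate 5. The 3 most variable of the 9 genes between animals of a group were FBN3 (pooled SD 0.60), LOX (0.43) and FBLN2 (0.36).

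Counted together, 3 of the 9 genes passed the adjusted p of 0.01 between control ages, all 3 lower at GD165, where 11.5% of all probes passed in either direction and 5.2% as lower. In BPA-exposed fetuses 2 of 9 passed, both lower, against 9.68% of all probes and 4.86% as lower. The median difference over the 9 genes was -0.53 in controls and -0.40 in BPA-exposed fetuses, beside medians of 0.00 and -0.05 over all 20217 probes. The ages did not overlap for 5 of 9 genes in controls (19.4% of all probes) and for 7 of 9 in BPA-exposed fetuses (27.2% of all probes). MFAP4 only just counted among those 7. The list was drawn up with earlier results of these data known, so these counts describe it and carry no test.

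**Figure D3:**
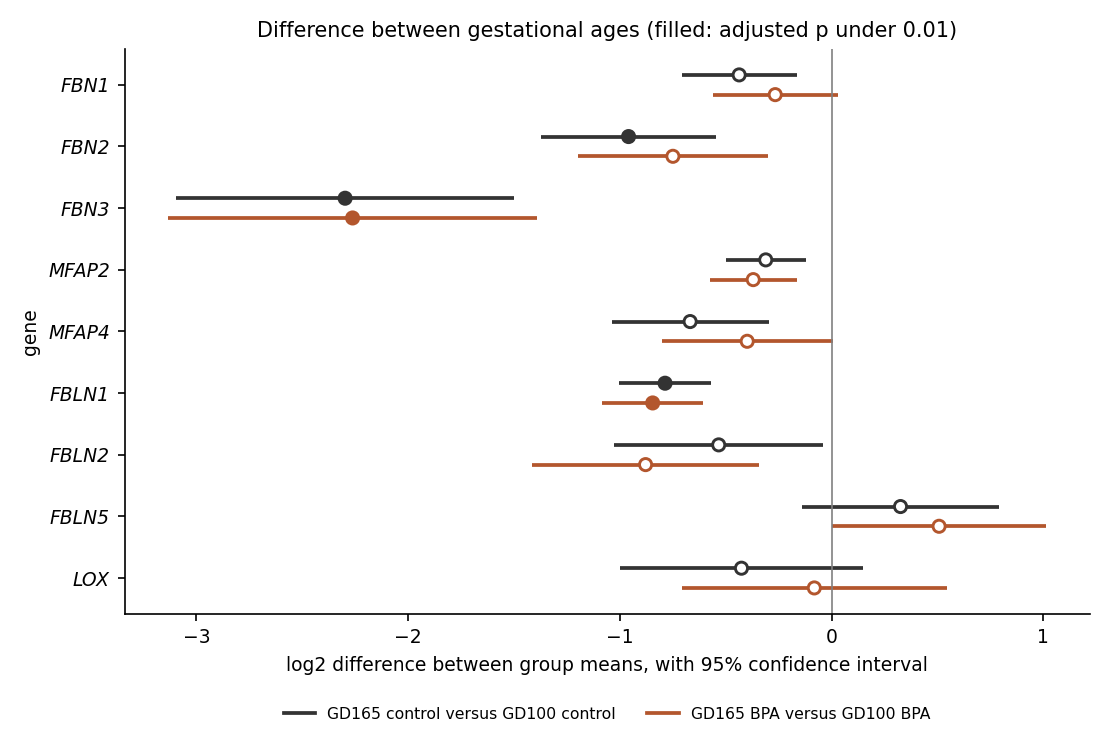
Log2 difference between GD165 and GD100 for each gene, with its 95% confidence interval, in controls (dark) and BPA-exposed fetuses (orange). Filled points passed the adjusted p of 0.01. FBN3 lies farthest to the left at -2.30 and -2.26, FBLN1 has the narrowest interval among those that passed, and FBLN5 alone lies to the right.

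Markers of several cell types and of proliferation differed between the same groups. For each list the log2 of the summed signal is given, which follows the brightest probes, and the mean log2 level of the genes, which weighs them equally. The 6 cell cycle genes all fell between control ages, with sums of 15.84 to 16.04 at GD100 and 14.43 to 14.89 at GD165. These are RNA levels, and the paper saw no significant drop in Ki-67 protein staining at GD165. Of 5 leukocyte genes 2 rose (sums of 14.50 to 15.20 against 16.16 to 16.69), of 5 epithelial genes 3 rose (15.71 to 16.44 against 16.94 to 17.25) and of 7 skeletal muscle genes 4 rose (11.26 to 11.67 against 12.64 to 16.44). For these 4 lists neither the sums nor the means overlapped between control ages. Of the skeletal muscle genes, CKM was well above background on 7 of 17 arrays and MYL1 on 10. Of 6 endothelial genes only VWF rose, and their sums did not overlap (14.83 to 15.75 against 15.80 to 16.72) while their means did (11.33 to 11.89 and 11.75 to 12.54). In the 7 uterine genes ESR1 and PAX8 rose and HOXA10 fell, with sums that overlapped (16.37 to 16.61 and 16.35 to 16.77) and means that did not (9.95 to 10.41 against 10.44 to 10.73). The rise of ESR1 is one of RNA, and the paper saw ERα staining in about the same share of nuclei at both ages. Sums and means both overlapped for the other 3 lists. Of 6 fibroblast genes PDGFRA fell (-0.48) and none rose, with sums of 19.78 to 20.10 and 19.58 to 20.05. Of 8 smooth muscle genes CNN1, LMOD1 and SMTN rose, with sums of 20.47 to 20.91 and 20.71 to 21.14. Among 5 cartilage genes SOX9 rose and MATN1 fell, with sums of 13.42 to 13.75 and 13.15 to 13.60.

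In BPA-exposed fetuses the 6 cell cycle genes also all fell, with sums of 15.87 to 16.01 at GD100 and 14.61 to 15.50 at GD165. The leukocyte genes LYZ and CD74 rose by 1.66 and 2.39 (sums of 14.25 to 14.98 against 15.84 to 17.17), the endothelial gene VWF by 1.37 (15.10 to 15.43 against 15.74 to 16.59), and the uterine genes ESR1 and PAX8 by 0.95 and 0.93 (16.08 to 16.48 against 16.55 to 16.62). In these 4 lists sums and means were both without overlap. The epithelial genes EPCAM and KRT7 rose by 1.65 and 1.23, with sums that did not overlap (15.64 to 16.30 against 16.45 to 17.01) and means that did (10.84 to 11.66 and 11.20 to 11.77). Of the skeletal muscle genes MYH2 rose, and again the sums did not overlap (11.48 to 12.15 against 12.38 to 15.58) and the means did (5.70 to 8.07 and 7.12 to 11.97). LMOD1 rose among the smooth muscle genes, whose sums overlapped (20.53 to 20.78 and 20.67 to 21.03) and whose means did not (15.99 to 16.26 against 16.33 to 16.94). Fibroblast genes, of which none passed, and cartilage genes, of which MATN1 fell, overlapped in both measures, with sums of 19.78 to 20.03 and 19.73 to 19.89 for fibroblast and 13.22 to 13.74 and 13.45 to 13.99 for cartilage. The part of these markers in the differences of the fibrillin, fibulin and other genes was not tested.

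Other genes of the pathway passed in both directions. Of 70 listed genes 65 had a probe, and between control ages 10 rose, 5 fell and 50 did not pass, beside 6.32% of all probes that rose and 5.2% that fell. Their median difference was 0.07. Without GD100 control replicate 4, GD165 control replicate 1 or GD165 control replicate 6, in each case 9 of the 65 passed in place of 15. In BPA-exposed fetuses 7 rose and 10 fell, beside 4.82% and 4.86% of all probes.

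Among 11 genes of proteins that associate with microfibrils, MFAP5 (microfibril-associated glycoprotein 2) rose by 1.83 (SE 0.35, adjusted p = 0.00178) in controls and by 1.85 (SE 0.38, adjusted p = 0.00353) in BPA-exposed fetuses, opposite in direction to FBN2 and FBN3. VCAN, a large proteoglycan that binds fibrillins and fibulins, fell by 0.96 (SE 0.11, adjusted p = 4.24e-05) and by 1.16 (SE 0.12, adjusted p = 5.64e-05). MMRN1 and MMRN2, multimerins of platelets and endothelium, rose in controls by 2.09 and 1.26, beside the endothelial marker VWF, which rose by 1.30. The other 5 endothelial markers did not pass, with PECAM1, CDH5, TEK and TIE1 between 0.21 and 0.49 and KDR at -0.30. MMRN1 was well above background on 4 of 5 GD100 controls. EMILIN1, which lies where elastin meets the microfibril, and EMILIN3 were at -0.26 and -0.60 in controls without passing. They fell by 0.35 and 1.08 in BPA-exposed fetuses. The latent TGF-beta binding proteins were not among the genes that passed in either treatment.

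None of the 4 LOX-like genes passed in controls (limma, 0 of 4), all 4 with a lower mean at GD165. In BPA-exposed fetuses LOXL2 fell by 0.48 and LOXL3 by 0.70. Among 7 genes of LOX maturation and scaffold, the tolloid-like proteinases went opposite ways, with TLL1 rising by 1.36 in controls and 1.41 in BPA-exposed fetuses and TLL2 falling by 2.09 in controls. TLL2 was well above background on 3 of 4 GD165 controls and on 0 of 3 BPA-exposed fetuses at GD165, for which no fold is given. FN1, which encodes fibronectin, fell by 0.51 in controls, and PCOLCE, an enhancer of procollagen processing, fell by 0.79 in BPA-exposed fetuses.

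Of 10 TGF-beta genes TGFB2 rose by 0.68 in controls, and SMAD7, an inhibitor of the pathway, rose by 0.47 in BPA-exposed fetuses. Of 8 elastolytic enzymes, neutrophil elastase (ELANE) rose by 2.26 and cathepsin S (CTSS) by 1.04 in controls, beside the leukocyte markers LYZ and CD74, which rose by 1.99 and 2.14, while the other 3 leukocyte markers did not pass. All 10 genes of elastin receptors and integrins had a higher mean at GD165 in controls, and LGALS3 (0.89), ITGB5 (0.87) and ITGA8 (1.30) rose. The same 3 genes rose in BPA-exposed fetuses, by 1.14, 0.95 and 0.98. Of 6 genes outside the matrix whose loss causes cutis laxa, PYCR1 and ALDH18A1, both of proline synthesis, fell by 1.52 and 0.47 in controls. In BPA-exposed fetuses PYCR1 fell by 1.93 and GORAB by 0.42, and RIN2 rose by 0.64.

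Among 7 ADAMTS and ADAMTS-like genes, whose products act on microfibrils, ADAMTS17 fell by 0.85 in BPA-exposed fetuses, and in controls it was at -0.31 without passing. Of the 2 other fibulins with a probe, EFEMP1 was at 0.75 and EFEMP2 at -0.16 in controls, and neither passed.

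**Figure D4:**
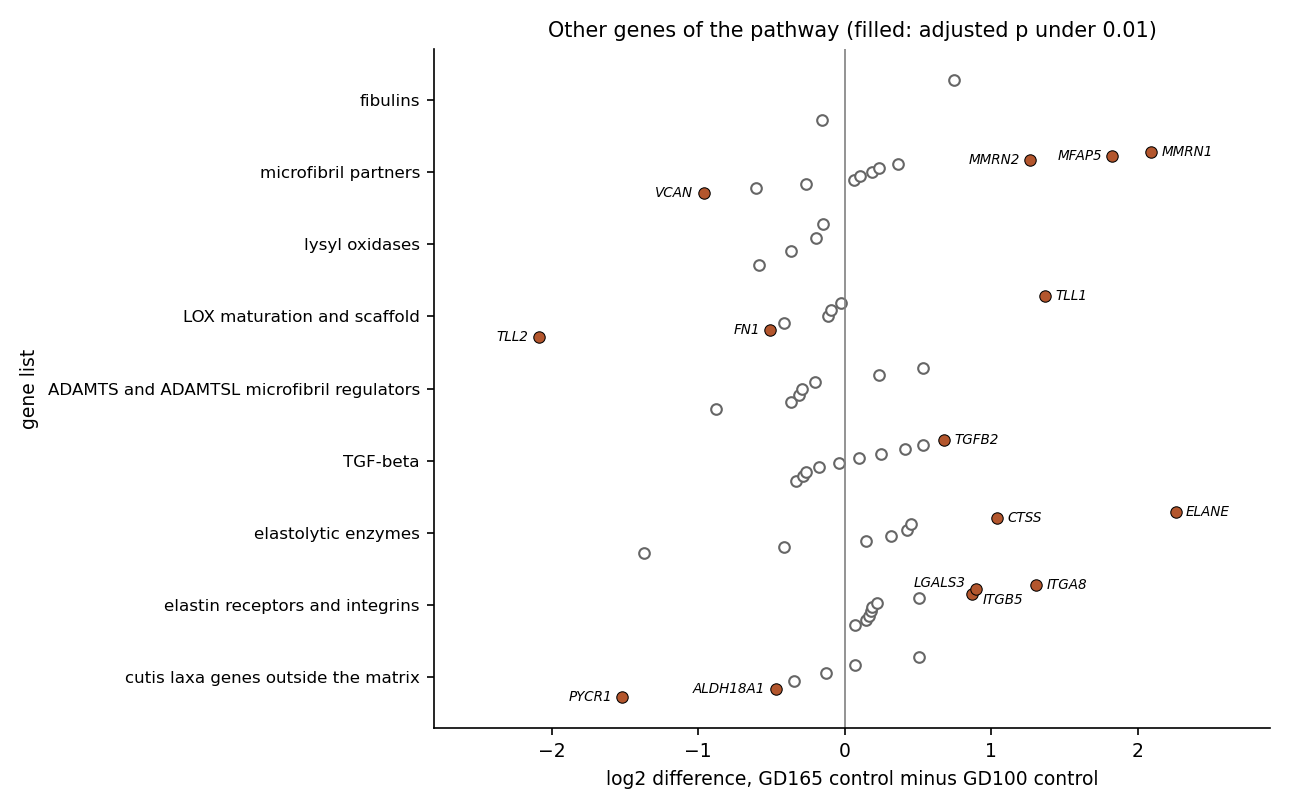
Log2 difference between GD165 and GD100 controls for 65 other genes of the pathway (points), arranged by list on the vertical axis. Filled, labelled points passed the adjusted p of 0.01, 10 to the right of 0 and 5 to the left.

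For BPA against control at GD100, none of the 9 genes passed with limma (0 of 9), and 0 had an unadjusted p under 0.05. Of all probes 0.0% passed the adjusted threshold in this fit and 3.79% had an unadjusted p under 0.05. The paper, by its error-weighted analysis of variance, reported few differing genes at this age. The groups overlapped for all 9 genes, and for all but 0.782% of probes. The largest differences were those of FBLN2, at 0.31 (95% confidence interval -0.15 to 0.78), FBN2, at -0.22 (-0.61 to 0.17), and MFAP4, at 0.19 (-0.16 to 0.54). FBN3 differed by -0.03, with an interval from -0.78 to 0.72 that leaves room for changes of up to 1.72-fold downward or 1.65-fold upward. FBLN1 differed by 0.11, and its interval reached only 1.24-fold upward and 1.07-fold downward.

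At GD165, BPA-exposed and control fetuses again gave 0 of 9 genes past the threshold with limma. MFAP4 alone had an unadjusted p under 0.05 (adjusted p = 0.545), a criterion met by 8.61% of all probes, while 0.0% passed after adjustment. That 0.0% belongs to the limma fit. The paper, by its error-weighted analysis of variance, did report probes that differed with BPA at this age. A two-sided exact permutation test of MFAP4 gave p = 0.171, where the smallest p that 4 against 3 fetuses allow is 0.0571. All 9 genes overlapped between the groups, which 7.31% of all probes did not. MFAP4 was 0.46 higher with exposure (95% confidence interval 0.04 to 0.88, or 1.03-fold to 1.85-fold), but GD165 control replicate 5, at 17.80, lay above 2 of the 3 exposed fetuses. LOX differed by 0.39 (-0.27 to 1.04). For FBN3 the interval around 0.00 ran from -0.90 to 0.91 and for FBN2, around -0.01, from -0.48 to 0.46. The interval of FBLN1 was -0.20 to 0.30 around 0.05 and that of FBN1 -0.23 to 0.39 around 0.08.

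The difference of the BPA effect between ages was tested as an interaction, which also compares the age difference of exposed and control fetuses. None of the 9 genes passed with limma (0 of 9), and 0 had an unadjusted p under 0.05, against 7.83% of all probes. The smallest adjusted p was 0.851, for MFAP4, at 0.27 (95% confidence interval -0.28 to 0.82). FBN2 passed between ages in controls and not in exposed fetuses, but its interaction was 0.21 (-0.40 to 0.82, adjusted p = 0.91). The interaction of FBN3 was 0.04 (-1.15 to 1.22) and that of FBLN1 was -0.06 (-0.38 to 0.26).

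**Figure D5:**
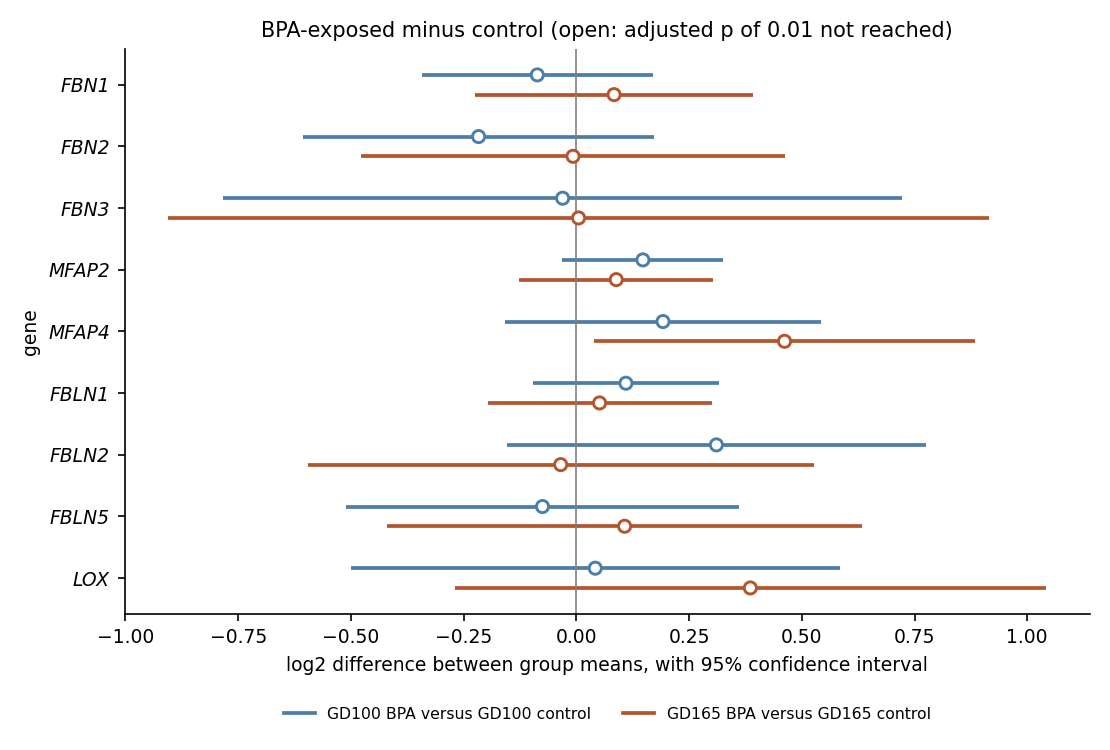
Log2 difference between BPA-exposed and control fetuses for each gene, with its 95% confidence interval, at GD100 (blue) and GD165 (orange). All points are open because none passed the adjusted p of 0.01, and MFAP4 at GD165 (0.46) is the interval that does not include 0.

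Within groups, the 9 genes did not vary as 1 block between animals. After group means were subtracted, Pearson's r over the 17 arrays, which share labeling and scaling, ran from -0.76 to 0.74 over the 36 pairs of genes, with a median of 0.21. The r was 0.74 for FBLN5 with LOX, 0.67 for MFAP2 with MFAP4, 0.61 for FBN2 with FBN3, -0.76 for FBN3 with LOX and -0.55 for FBN3 with FBLN5. GD165 control replicate 6 combined the lowest FBN2 and FBN3 of all 17 fetuses with the highest FBLN5. Without that animal, a comparison chosen after seeing the data, r fell to 0.13 for FBN2 with FBN3 and was -0.29 for FBN3 with FBLN5, -0.58 for FBN3 with LOX and 0.60 for FBLN5 with LOX. MFAP2 with MFAP4 was at 0.67 without it too, and between 0.62 and 0.78 without any 1 animal.

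Among 13936 genes well above background on every array, those whose deviations were most like FBLN5 were RERG, a Ras-like growth inhibitor regulated by estrogen, CTGF, a matricellular growth factor, and ASPN, a small leucine-rich proteoglycan, with r of 0.93, 0.92 and 0.91. RERG was also among the 3 genes most like LOX (0.84). SLC4A3 (0.91), CKB (0.88) and NDUFB6 (0.87) were most like FBN3, and KDELC2 (0.93), XPO4 (0.91) and HNRPD (0.90) most like FBN2. Without GD165 control replicate 6 the r of these 6 genes with FBN3 or FBN2 was 0.69 to 0.84, and that of RERG with LOX was 0.70. FSCN1 (0.90), SLITL2 (0.84) and CRABP1 (0.84) were most like FBLN1, SNTB2 (0.90) most like FBN1, GOLGA1 (0.93) most like MFAP4, MRPL54 (0.84) most like FBLN2 and FLJ25179 (0.84) most like MFAP2. Without GD100 control replicate 5, r was 0.83, 0.78 and 0.76 for FSCN1, SLITL2 and CRABP1 with FBLN1 and 0.71 for FLJ25179 with MFAP2. Without GD165 control replicate 5, it was 0.93, 0.88 and 0.84 for RERG, CTGF and ASPN with FBLN5 and 0.92 for GOLGA1. SNTB2 was at 0.88 without GD100 BPA replicate 5 and MRPL54 at 0.86 without GD100 control replicate 2.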

How the data were processed

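Total RNA of individual fetal uteri was labeled with Cy3 and hybridized to Agilent rhesus macaque arrays, 1 array per fetus, on 6 slides. The authors extracted signals with Agilent Feature Extraction 9.5, and the deposited intensity values are linear, background-subtracted and not scaled between arrays. The table of all arrays held the same values as the scanner files in 711467 of 711467 comparisons (tolerance 0).

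The 2 spots of a probe were averaged on the log2 scale after outlier and control spots were left out, giving 20217 probes, and each array was scaled to its 75th percentile (mean 12.62, added back). The share of spots well above background was 83.8 to 89.0% on an array. The number of arrays limits the precision. limma 3.58.1 in R 4.3.3 was fitted to 4 groups over all 17 arrays, with two-sided tests, Benjamini-Hochberg adjustment over all probes and a threshold of 0.01 from the methods of the study, whose error-weighted analysis of variance was not repeated. The fit was tested on simulated data, in which 58.5% of 200 probes changed 2-fold between control ages were recovered. Only those 200 of 20217 probes were changed, so this share is not that of the real age comparison. Scaling, background, slide, prior, probe and replicate alternatives are in the closing section.

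Probes were named from the array's descriptions, and 626 through gene IDs matched to the RefSeq table for T2T-MMU8v2.0. In all, 18029 probes were named. Older symbols in the descriptions were equated with 8 listed pathway and marker genes. Probe coordinates in the files use chromosome names that the macaque lacks and are not printed. Named are the 9 genes, pathway genes that passed in a comparison and at most 2 per list that did not, marker genes, and the genes most like a member. The genes, lists and comparisons were chosen with earlier results of these data known. Labels give 1 fetus per array, so the spread is between animals.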

Additional observations from a re-analysis of the deposited data

Results flagged for a closer look

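A sample stood apart from the rest of its group in 2 of the 27 combinations of gene and group with 4 or 5 fetuses, by Dixon's ratio of gap to range. Chance alone marks about 1 in 20. FBN2 in GD165 control replicate 6 was 13.30, against 14.31 to 14.38 in the other 3 controls, and without this fetus the age difference of FBN2 was -0.70 (adjusted p = 0.0022). LOX in GD100 control replicate 3 was 9.01, against 8.24 to 8.43 in the other 4 controls, and without it the age difference of LOX was -0.29 (adjusted p = 0.514).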

How the results depend on the processing

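Between control ages the differences of the 9 genes kept their direction under all 31 alternatives, with 265 of 279 values on the same side of the threshold, 3 that lost and 11 that gained a call. Between BPA-exposed ages these counts were 268, 2 and 9, and 4 values that were not called changed sign. In the comparisons of BPA with control, and in the interaction, 0 of the 9 genes passed under any alternative run, and 12, 26 and 20 values that were not called changed sign. In controls 5 of 9 genes passed with scaling to the median, 5 with a trended and robust prior and 6 at an adjusted p of 0.05. In BPA-exposed fetuses 5 passed at 0.05 and 1 when the probes of a gene were averaged. Of the pathway genes, 7 passed when only the control groups were fitted, 7 with slide as a fixed block, 6 with the replicate block and 28 at 0.05. Leaving out 1 fetus at a time gave 3 to 5 genes in controls (5 without GD100 control replicate 5, with MFAP2 and MFAP4 added), 1 to 3 in BPA-exposed fetuses (1 without GD165 BPA replicate 5, which loses FBN3) and 9 to 17 pathway genes. FBN3 ranged from -2.62 to -1.81 in controls and from -2.66 to -1.94 in BPA-exposed fetuses, and FBN2 in controls from -1.06 to -0.67. The causes were not tested.

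Same-numbered fetuses of different groups share only a number (r of their deviations from -0.17 to 0.12). With that number as a replicate block, 3 genes passed in controls, 3 in BPA-exposed fetuses and 0 in the BPA comparisons. The interaction was not fitted on the compared groups only, and scan date was not run because each slide had a single scan time. Without scaling, the median over all probes between BPA-exposed ages shifted to 0.13 and 76.1% of called probes were higher, against 49.8% as reported. FBN1, MFAP2 and MFAP4 then differed by -0.08, -0.19 and -0.22 between BPA-exposed ages. LOX in controls was -0.83 and FBLN5 0.09 with the replicate block. Over all probes, the 2328 calls between control ages became 1525 without scaling, 1172 with only the control groups, 1233 with slide as a fixed block, 958 with the replicate block, 4279 at an adjusted p of 0.05 and 1512 without GD165 control replicate 6. The 1956 calls between BPA-exposed ages became 1176 with only those groups, 512 with slide as a fixed block, 4255 at 0.05, and 994 and 1181 without GD165 BPA replicates 4 and 5. At a 1.5-fold change the simulated recovery was 21.5% between control ages and 8.5% for BPA at GD165, so small differences were mostly missed in the simulated setting. The simulation changed 200 of 20217 probes, whereas 2328 were called between control ages in the data. Its adjusted threshold was therefore harder to pass than that of the real age comparison, and the 21.5% does not give the share detectable there. For BPA at GD165, where 0 probes were called in the data, the simulated threshold was the easier one to pass. The 8.5% therefore does not give the share detectable in that comparison either.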
